A study of Mus musculus with 4 samples.

Results

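The alpha-defensin genes described here were the 8 features with the symbols Defa3, Defa23, Defa24, Defa30, Defa29, AY761184, Gm14851 and Gm7861, of 31054 features listed in each of 4 single-cell RNA libraries. They were chosen by symbol from 28 alpha-defensin genes in the files, and with earlier results of these data in view. All libraries came from sorted intestinal epithelial cells of Bmi1-GFP mice, a reporter strain in which the Bmi1 locus drives a green fluorescent protein. The 4 groups, all Bmi1-GFP and each with 1 library, were embryos of day 12.5 (written E12.5), embryos of day 17.5 (E17.5), adults and irradiated adults. E17.5 cells came from the small intestine; the labels used here give no radiation dose, time after irradiation, adult age, sex, genetic background beyond the reporter, number of animals, adult gut segment or sort gate. Single libraries allow neither a replicate check nor a test, so intervals given here cover counting error only, and irradiation, the animals with the alpha-defensin gene copies they carry, and library preparation cannot be told apart.

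Alpha-defensins of the mouse gut, also called cryptdins, are short cationic peptides that kill bacteria and are stored in the granules of Paneth cells at the base of small intestinal crypts. They are made as precursors, and the metalloproteinase Mmp7 cuts the mature peptide free. A related branch of the family, the cryptdin-related sequences (CRS), has a similar signal and pro-region but a different cysteine-rich mature part. The genes lie in a dense array on mouse chromosome 8 in which some copies are nearly identical, so the assignment of a sequencing read to 1 copy is not always possible.

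The 8 members fell into both branches by sequence. In the GENCODE M21 annotation (GRCm38), the 28 genes spanned 709.9 kb of chromosome 8. Defa3, Defa23, Defa24 and Defa30 lay on the plus strand, each with 2 exons and a coding sequence of 279 bases without the stop codon, and are called cryptdin-type here. Defa29, AY761184, Gm14851 and Gm7861 lay on the minus strand with 2 exons and 348 coding bases, and are called CRS-type. RefSeq names AY761184 Defa39, Gm14851 Defa38 and Gm7861 Defa43; for AY761184 the match was by position. Coding sequences were 95.7% to 98.6% identical among the cryptdin-type members, 96.0% to 97.4% among the CRS-type members and 62.75% to 65.6% between the types. The 4 cryptdin-type coding sequences are shown whole, exons joined, 5′ to 3′, because the adult and irradiated libraries differed in the use of such near-copies; capitals mark the 15 positions at which the 4 differ. They run over chr8:21287443-21288280 (Defa3), chr8:21055081-21055918 (Defa23), chr8:21734537-21735374 (Defa24) and chr8:21134663-21135500 (Defa30), introns included.
Defa3: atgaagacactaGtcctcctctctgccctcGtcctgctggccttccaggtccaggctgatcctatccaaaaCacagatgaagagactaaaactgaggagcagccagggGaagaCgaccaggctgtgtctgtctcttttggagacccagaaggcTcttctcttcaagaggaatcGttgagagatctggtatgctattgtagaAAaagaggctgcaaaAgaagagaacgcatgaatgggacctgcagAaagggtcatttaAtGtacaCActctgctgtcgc
Defa23: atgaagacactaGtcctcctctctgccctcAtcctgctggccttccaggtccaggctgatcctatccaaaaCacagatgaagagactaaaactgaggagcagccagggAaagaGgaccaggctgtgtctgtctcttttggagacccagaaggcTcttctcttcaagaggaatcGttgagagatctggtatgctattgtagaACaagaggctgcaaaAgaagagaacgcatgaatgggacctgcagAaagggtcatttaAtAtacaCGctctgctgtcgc
Defa24: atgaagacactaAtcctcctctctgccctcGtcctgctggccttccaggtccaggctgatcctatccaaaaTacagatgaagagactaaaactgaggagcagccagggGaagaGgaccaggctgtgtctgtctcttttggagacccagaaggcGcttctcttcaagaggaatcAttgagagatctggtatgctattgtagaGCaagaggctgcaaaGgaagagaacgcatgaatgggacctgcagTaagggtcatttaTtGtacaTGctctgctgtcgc
Defa30: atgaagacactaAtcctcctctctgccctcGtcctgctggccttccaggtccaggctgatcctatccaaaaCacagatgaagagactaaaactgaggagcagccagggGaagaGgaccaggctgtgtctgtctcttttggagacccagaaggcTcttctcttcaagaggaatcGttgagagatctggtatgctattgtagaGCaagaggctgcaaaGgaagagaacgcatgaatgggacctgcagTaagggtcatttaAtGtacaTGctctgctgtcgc

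Defa24 and Defa30 differed at 4 of these positions, Defa3 and Defa23 at 6, and Defa3 and Defa24 at 12. Of the CRS-type members the last 198 coding bases are shown, again 5′ to 3′ on the minus strand, since these hold most of the cysteine-rich part; capitals mark the 14 positions at which the 4 differ. They lie within chr8:21326002-21326825 (Defa29), chr8:21702631-21703452 (AY761184), chr8:21095077-21095900 (Gm14851) and chr8:21593490-21594315 (Gm7861). Gm14851 and Gm7861 differed at 10 of these bases and at 13 over the whole coding sequence. They were paired after their values were seen, because they moved in opposite directions in the adult comparison.
Defa29: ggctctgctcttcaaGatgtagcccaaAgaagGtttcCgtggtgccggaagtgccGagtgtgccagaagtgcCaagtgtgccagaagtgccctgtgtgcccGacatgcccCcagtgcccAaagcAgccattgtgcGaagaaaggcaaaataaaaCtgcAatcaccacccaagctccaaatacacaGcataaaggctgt
AY761184: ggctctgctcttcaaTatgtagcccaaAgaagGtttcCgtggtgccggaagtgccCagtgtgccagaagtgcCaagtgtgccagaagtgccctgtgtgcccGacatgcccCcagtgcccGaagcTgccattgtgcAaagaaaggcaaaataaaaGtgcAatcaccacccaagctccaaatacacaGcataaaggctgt
Gm14851: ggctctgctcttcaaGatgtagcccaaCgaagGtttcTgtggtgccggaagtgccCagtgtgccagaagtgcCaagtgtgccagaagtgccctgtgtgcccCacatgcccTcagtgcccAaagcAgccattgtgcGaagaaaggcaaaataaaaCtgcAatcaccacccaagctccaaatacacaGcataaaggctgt
Gm7861: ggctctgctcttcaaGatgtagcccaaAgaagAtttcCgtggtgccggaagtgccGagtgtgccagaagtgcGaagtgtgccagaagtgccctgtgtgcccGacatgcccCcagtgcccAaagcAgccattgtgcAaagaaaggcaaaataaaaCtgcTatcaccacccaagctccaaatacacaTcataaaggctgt

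How far a count belongs to its gene differed between members. Of all windows of 90 bases in a member's transcript, 330 of 330 in Defa24 and 414 of 414 in AY761184 occurred in no other alpha-defensin transcript, as did 295 of 309 in Defa30, 363 of 419 in Defa29 and 206 of 262 in Gm14851. The share was low for Defa3 (41 of 321 windows), Defa23 (34 of 322) and Gm7861 (18 of 417). Their coding sequences were identical to those of Defa17, Defa31 and Gm7849, so the counts of these 3 members are uncertain on their own, and sums with the near-identical copy are given beside them. The annotated Gm14851 transcript ends at its stop codon, whereas the models of the other 7 members continue for 94 to 112 bases. The kit reads from the 3′ end of transcripts, so levels of different genes also depend on where their models end. The shares of the family's UMIs and of the UMIs of a pair given below carry this limit and do not rank the expression of genes.

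The 2 genes of this pair also have near-identical upstream sequence. RefSeq promoters (GRCm38.p6) were matched for 4 of the 8 members: Defa23, Defa30, Gm14851 and Gm7861. Over the 250 bases before the RefSeq start, Gm14851 and Gm7861 were 97.2% identical. Bases 250 to 51 before that start are shown 5′ to 3′ (minus strand), from chr8:21096101-21096300 for Gm14851 and chr8:21594516-21594715 for Gm7861, with capitals at the 6 differing bases; the GENCODE start of Gm7861 lies 43 bases upstream of the RefSeq start.
Gm14851: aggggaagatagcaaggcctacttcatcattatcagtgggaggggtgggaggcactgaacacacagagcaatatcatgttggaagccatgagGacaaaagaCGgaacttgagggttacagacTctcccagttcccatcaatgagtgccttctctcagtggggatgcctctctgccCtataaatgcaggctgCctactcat
Gm7861: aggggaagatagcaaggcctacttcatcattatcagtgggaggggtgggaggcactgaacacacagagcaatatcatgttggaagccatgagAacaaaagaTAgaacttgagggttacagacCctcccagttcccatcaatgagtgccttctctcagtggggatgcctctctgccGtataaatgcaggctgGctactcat

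The letters TATAAA, searched on both strands of these 250 bases, occurred once in each of the 4 promoters, at 74 bases before the RefSeq start in both Gm14851 and Gm7861, and in 12.4% of 32851 promoters in the table. CTTTGAT, letters known from binding sites of the Wnt pathway's Tcf factors, occurred 2 times in Defa23, once in Defa30 and in neither Gm14851 nor Gm7861, against 3.21% of all promoters. These matches describe the letters only.

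Cells with at least 500 genes and at most 20% mitochondrial UMIs (unique molecular identifiers, each 1 captured RNA molecule) were kept. They numbered 4226 (E12.5), 4602 (E17.5), 3788 (adult) and 3184 (irradiated adult), with totals of 31908663 to 89064972 UMIs. A kept cell was called Paneth-rich when Lyz1, Defa24, Defa30 and Itln1 made up at least 15% of its UMIs. Because Lyz1, Defa24, Defa30 and Itln1 chose these cells, their levels in them are a description only. The rule found 106 adult cells (2.80%, exact Clopper-Pearson 95% interval 2.30% to 3.38%) and 108 irradiated adult cells (3.39%, 2.79% to 4.08%). It found 0 of 4226 cells at E12.5, with an exact upper limit of 0.08725%, and 0 of 4602 at E17.5, with an upper limit of 0.08013%. The cells nearest the limit had 15.3% (inside) and 14.5% (outside) in the adult and 15.6% and 14.8% in the irradiated adult.

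All 9 Paneth markers of the list had UMIs in these cells in both libraries, and the list took 8.599% of UMIs in adult and 11.4% in irradiated Paneth-rich cells. Lyz1 and Itln1 are on this list and also chose the cells, so the share of the list and their own levels do not test what the cells are. Lyz1, which encodes lysozyme, stood at 36265 UMIs per 1000000 UMIs (CPM) in adult Paneth-rich cells against 250 in the other adult cells, and at 58013 against 383 in the irradiated adult; of the other markers Mptx1 alone was no higher in Paneth-rich than in other cells, at 0.55 against 0.81 CPM and 1.02 against 2.18 CPM. Of 6 immune markers Cd3e, Tyrobp and Cd52 were at 0 in both, and the other 3 had UMIs in both. The immune list took 0.00102% (adult) and 0.000766% (irradiated adult) of UMIs. Enteroendocrine markers took 0.285% and 0.505%, and up to 14.45% and 7.14% in single cells. The Paneth-rich cells also differed between libraries in other measures: the median total was 14117 UMIs (adult) and 85696.5 UMIs (irradiated adult), the median mitochondrial share 3.36% and 0.905%, and goblet markers took 1.24% and 2.56% of UMIs. Crypt base columnar stem cell markers took 0.129% and 0.00561%, and cycling markers 0.0173% and 0.00146%. Olfm4, a stem cell marker, stood at 993 CPM in the adult cells, with a UMI in 73.6% of them, and had 0 UMIs in 98 of the irradiated cells and 7 in the other 10. The part of the mitochondrial share and of these markers in the members' ratios was not tested, and ratios in cells of at least 10000 UMIs are given below. Pairs of libraries shared 6 to 12 cell barcodes, the adult pair 7. Doublets were not removed, since the rule for the cells does not do so; removing the highest scores took 2 adult and 0 irradiated Paneth-rich cells.

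In the Paneth-rich cells 4 of the 8 members differed by more than 5-fold between the libraries, and the other 4 differed little. Gm14851 was 10.35-fold higher and Defa23 8.39-fold higher in the irradiated adult, Gm7861 was 8.08-fold lower and Defa3 5.08-fold lower, and Defa24, Defa30, Defa29 and AY761184 differed by at most 1.25-fold. Those last 4 took most of the alpha-defensin UMIs in both libraries: Defa24 took 43.8% in the adult and 45.0% in the irradiated cells, Defa30 20.5% and 26.2%, AY761184 11.1% and 11.4%, and Defa29 4.38% and 5.07%. Of the 8 members, 2 were at least 2-fold higher and 2 at least 2-fold lower, where 8.04% and 9.07% of the 9650 genes with at least 10 UMIs in the higher library passed these limits. The 6 members that did not choose the cells summed to 151824 CPM in adult cells and 163205 CPM in irradiated ones, a log2 ratio (of CPM plus 1) of 0.10. All 28 genes took 65.0% of adult and 63.4% of irradiated UMIs, a description only, since most of these UMIs came from the 2 members that chose the cells. All 8 passed the UMI minimum; their median log2 ratio was 0.09 against 0.04 over all genes tested.

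**Figure D1:**
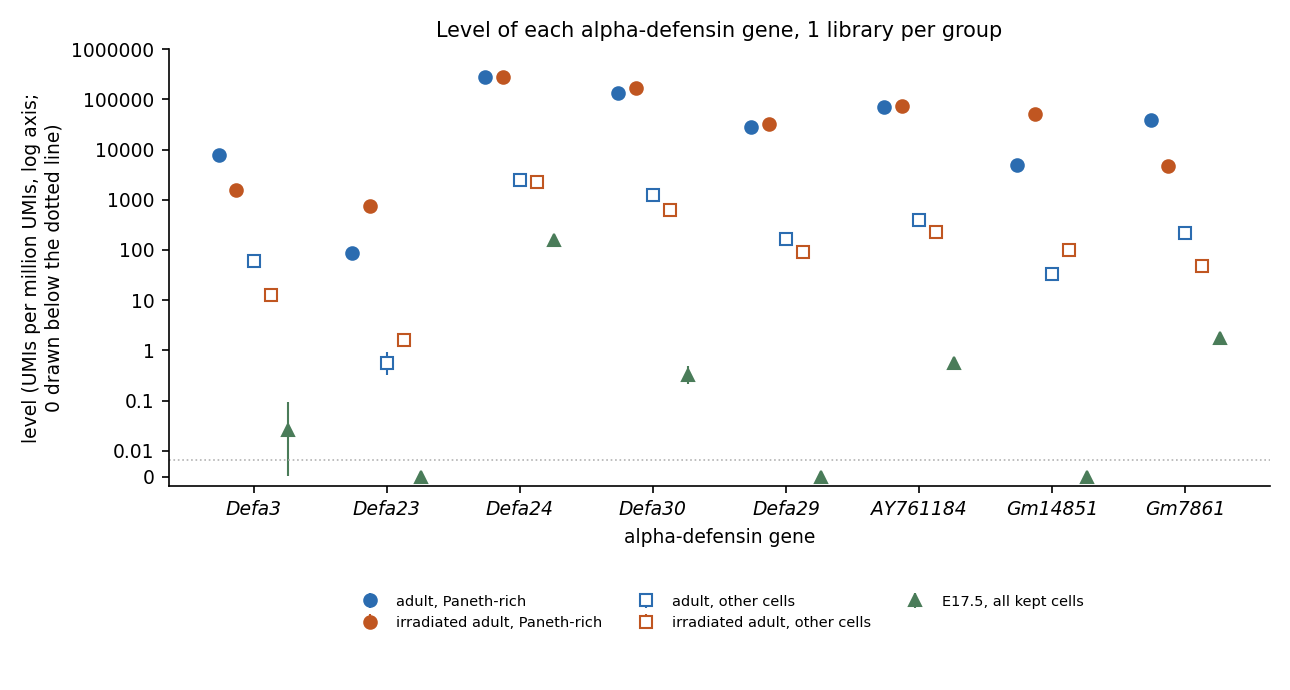
Level of each of the 8 alpha-defensin genes in CPM on a log axis, with exact Poisson 95% intervals (mostly smaller than the symbols), in Paneth-rich cells and other cells of the adult and irradiated adult and in all kept E17.5 cells. Gm14851 and Defa23 lie higher, and Gm7861 and Defa3 lower, in irradiated than in adult Paneth-rich cells, and members with no UMI at E17.5 are drawn at 0.

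Among the CRS-type members, Gm14851 and Gm7861 moved in opposite directions, for which they were paired after their values were seen. By coding sequence Gm14851 was closer to Defa29 (97.41% identical) than to Gm7861 (96.26%). Gm14851, a precursor gene of the CRS branch, had 18105 UMIs in adult Paneth-rich cells, a level of 4982 CPM (exact Poisson interval 4910 to 5055), and 403801 UMIs in irradiated ones, 51564 CPM (51405 to 51723). The ratio was 10.35 with an exact interval of 10.2 to 10.5. Single adult cells ran from 0 over a median of 3568 to 7956 CPM, and irradiated cells from 0 over 50544 to 82999 CPM. Gm7861, from the same branch, went the other way, from 38302 CPM (38101 to 38503) to 4739 CPM (4691 to 4788), 8.08-fold lower (7.99 to 8.18). Its single cells ran from 8053 over 24524 to 72535 CPM in the adult and from 0 over 4413 to 13193 CPM in the irradiated adult. Summed with Gm7849, whose coding sequence is the same, Gm7861 was 7.94-fold lower (38330 to 4829 CPM), and Gm7849 itself had 105 and 706 UMIs. Gm14851 and Gm7861 lie 497.3 kb apart, as the 5th and the 23rd of the 28 genes along the array.

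Defa29 and AY761184, the other CRS-type members, differed little. AY761184 stood at 72192 CPM in adult and 72503 CPM in irradiated cells (log2 ratio 0.01), and Defa29 at 28469 and 32124 CPM (log2 ratio 0.17). In single cells AY761184 ran from 14140 to 132929 CPM in the adult and from 17.8 to 128835 CPM in the irradiated adult, so the libraries overlapped. Both had UMIs in all 106 adult cells; AY761184 had them in all 108 irradiated cells and Defa29 in 105.

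Of the cryptdin-type members outside the cell rule, Defa3 was lower in irradiated cells and Defa23 higher, from a low level. Defa3 stood at 7792 CPM (7701 to 7883) in adult and 1534 CPM (1507 to 1562) in irradiated Paneth-rich cells, 5.08-fold lower (4.97 to 5.19). Single cells ran from 1323 over a median of 5419 to 15956 CPM in the adult and from 0 over 1453 to 3958 CPM in the irradiated adult, so the ranges overlapped while the medians lay apart. Its twin by coding sequence, Defa17, was the only non-member with at least 1% of the alpha-defensin UMIs in either adult library, and went from 73561 to 8997 CPM, 8.18-fold lower. The sum of Defa3 and Defa17 was 7.73-fold lower (7.67 to 7.79), the direction of each gene alone. Defa23 had 321 UMIs in adult and 5802 in irradiated cells, 88.3 CPM (78.9 to 98.6) and 741 CPM (722 to 760), and had a UMI in 55.7% of adult cells and 87.0% of irradiated ones. In cells thinned to 2000 UMIs, which left out 9 adult and 4 irradiated cells, these shares were 13.4% and 64.4%. Its twin Defa31 had 12 and 7 UMIs, and their sum was 8.09-fold higher (7.25 to 9.07).

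Defa24 and Defa30 hold the largest part of the family's UMIs and helped to choose the cells, so their values are a description. Defa24 was at 284899 CPM in adult and 285082 in irradiated Paneth-rich cells. Defa30 was at 133026 and 166296 CPM. Single adult cells ran from 85407 to 393681 CPM for Defa24 and from 46379 to 245026 for Defa30; among irradiated cells Defa30 reached down to 261 CPM.

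The differences are also described cell by cell. The cells of a group come from 1 library and are not replicates, and they differed in depth between the libraries. Such counts of cells are not given for other genes. Counted within the alpha-defensin UMIs of each Paneth-rich cell with at least 500 of them, Gm14851 took 0.188% to 1.25% (median 0.745%) in 102 adult cells and 0% to 11.03% (median 7.96%) in 108 irradiated cells. In 93 of the irradiated cells its share exceeded that of every adult cell, and in 14 it was below that of every adult cell. Gm7861 took 1.5% to 9.35% (median 5.62%) in adult cells and 0% to 2.83% (median 0.744%) in irradiated cells, 102 of which were below every adult cell. Defa3 was below every adult cell in 96 of the 108, whereas no irradiated cell exceeded the adult maximum of 2.36%. Defa23 had medians of 0.00813% in adult and 0.113% in irradiated cells. It exceeded the adult maximum of 0.160%, which came from a cell with only 627 alpha-defensin UMIs, in 14 irradiated cells. For Defa24, AY761184 and Defa29 most cells of the libraries overlapped, with medians of 43.2% and 44.4%, 9.10% and 11.2%, and 4.04% and 4.74%.

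**Figure D2:**
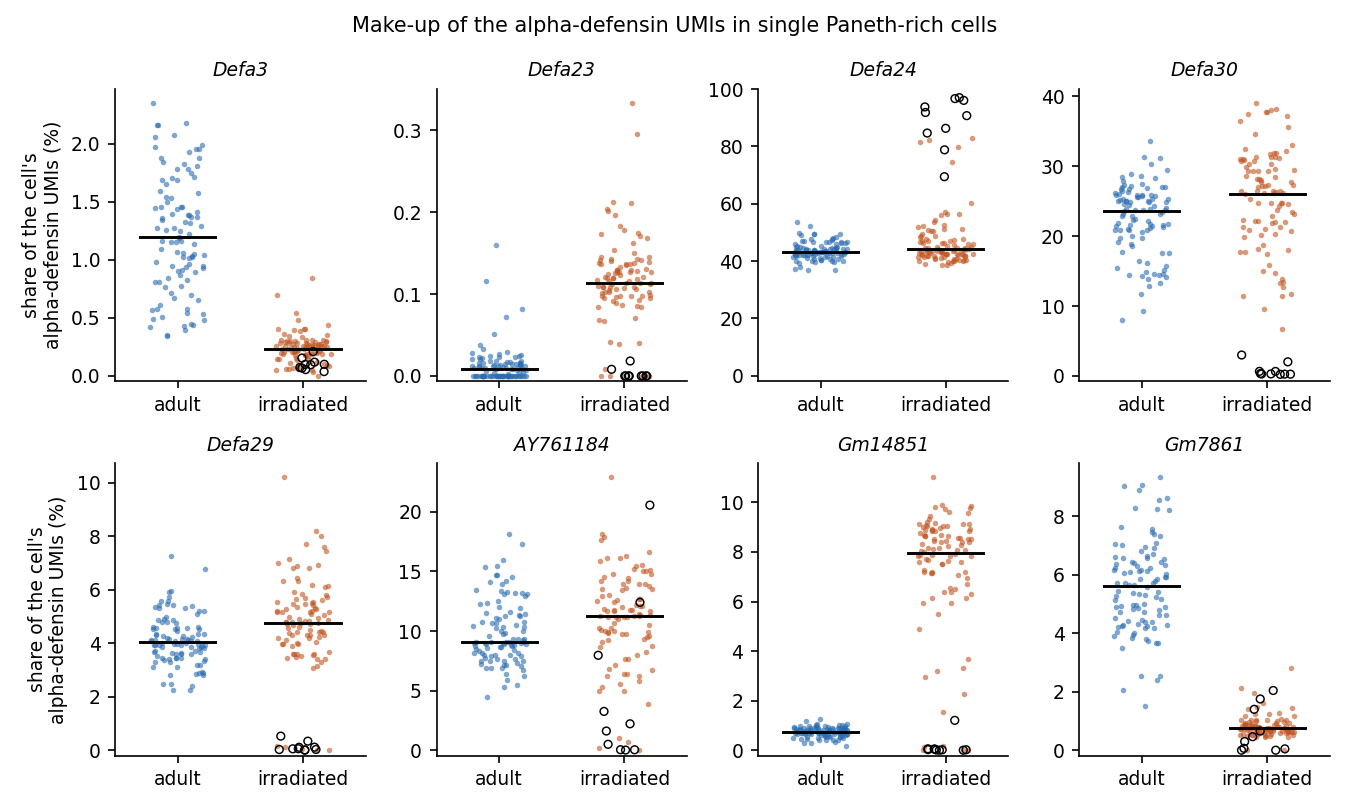
Share of each member in the alpha-defensin UMIs of single Paneth-rich cells (102 adult, 108 irradiated adult, each with at least 500 such UMIs), with the median as a bar. Open circles mark the 10 irradiated cells in which Defa30 was under 5% of the alpha-defensin UMIs, and the clouds of Gm14851, Gm7861 and Defa3 are largely apart between libraries.

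In most cells of a library the same gene of this pair, which was chosen by its outcome, had more UMIs. Of the UMIs that Gm14851 and Gm7861 share, Gm14851 took under 25% in 100 of 102 adult cells and 25% to 40.5% in the other 2. In the irradiated adult it took at least 75% in 90 of 107 cells with a UMI of either gene, 50% to 75% in 5, 25% to 50% in 4 and under 25% in 8. Of those last 8 cells, 5 were cells with little Defa30. No minimum was set on the UMIs of the pair. The irradiated cells at 100% had Gm14851 at only 0.014%, 0.151% and 0.0367% of their alpha-defensin UMIs, under the adult minimum of 0.188%.

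**Figure D3:**
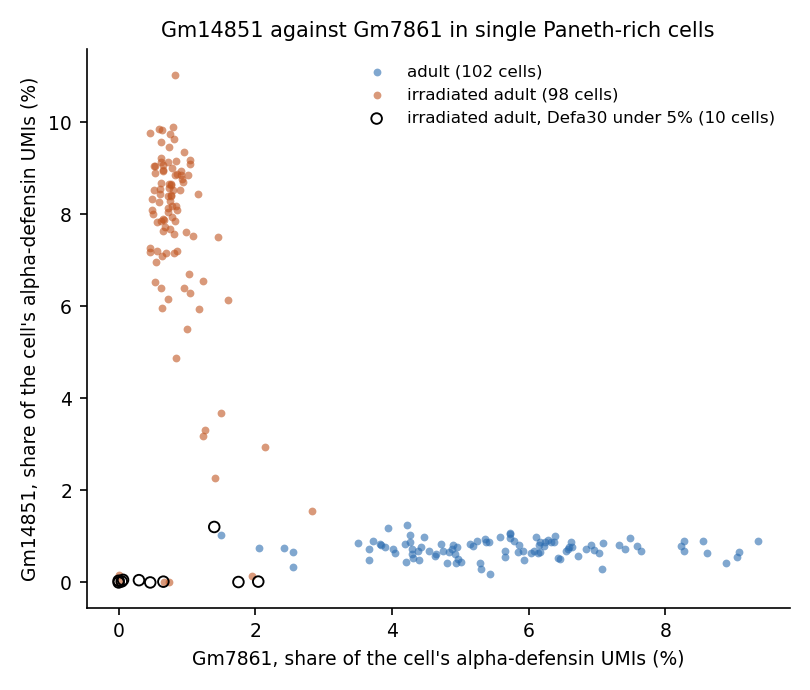
Share of Gm14851 (vertical) against share of Gm7861 (horizontal) in the alpha-defensin UMIs of single Paneth-rich cells. Adult cells spread along the horizontal axis with Gm14851 at most 1.25%, most irradiated cells lie along the vertical axis with Gm7861 at most 2.83%, and the 10 cells with Defa30 under 5% lie at the lower left, with Gm14851 at most 1.25%.

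A small set of irradiated cells had another make-up. In 25 kept cells with at least 500 alpha-defensin UMIs, 10 of them Paneth-rich, Defa30 was under 5% of those UMIs, and Defa24 took 89.3% of the set's alpha-defensin UMIs against 44.3% in the other 98 Paneth-rich cells. AY761184 took 4.29% there, Gm7861 0.695% and Gm14851 0.174%. Defa17 took 3.99%. The set was defined by its low Defa30 after the values were seen, so its shares of the other members are a description. Goblet markers took 19.9% of its UMIs, against 1.76% in the other irradiated Paneth-rich cells: Zg16, a mucus-layer lectin, was at 67396 against 873 CPM, and Tff3, a trefoil peptide of goblet cells, at 37508 against 1742 CPM. In the 10 that were Paneth-rich, goblet markers took 13.9% and Lyz1 stood at 27871 CPM. Median totals were 42294 UMIs in the set and 97751 in the other Paneth-rich cells, and whether such barcodes hold 1 cell or a goblet and a Paneth cell was not tested. The 76 goblet-marker cells of the irradiated library, those outside the Paneth-rich cells with at least 2% of UMIs from goblet markers, had Defa24 at 19485 CPM and at 85.8% of their alpha-defensin UMIs, and 7 such adult cells had it at 8266 CPM and 83.5%. These classes share cells with the set. The adult library had 3 Defa30-low cells, none Paneth-rich, with Defa24 at 79.5% and Defa17 at 19.2% of alpha-defensin UMIs. Without the set, Gm14851 was higher in irradiated Paneth-rich cells by 3.47 and Defa23 by 3.15 on the log2 scale, and Gm7861 fell by 2.94 and Defa3 by 2.26, a choice made after seeing the data. In Paneth-rich cells of at least 10000 UMIs, 60 adult and 84 irradiated, the 4 log2 ratios were 3.35, 3.03, -3.04 and -2.35 in the same order.

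Across the whole array the differences were also mixed in direction. Of the 28 alpha-defensin genes, 24 had at least 10 UMIs in the higher library; 10 of them were at least 2-fold higher and 7 at least 2-fold lower in irradiated Paneth-rich cells, against 8.04% and 9.07% of all genes. Genes with higher and with lower levels stood next to each other at some places along the chromosome, while no gene among the first 7 of the array was called lower. The spread of the calls along the array was not tested. Gm14851 lies 38.59 kb before Defa30, whose log2 ratio was 0.32, and Defa17, at -3.03, is followed by Defa34, singled out after its values were seen, at 5.17 (17 and 1593 UMIs).

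**Figure D4:**
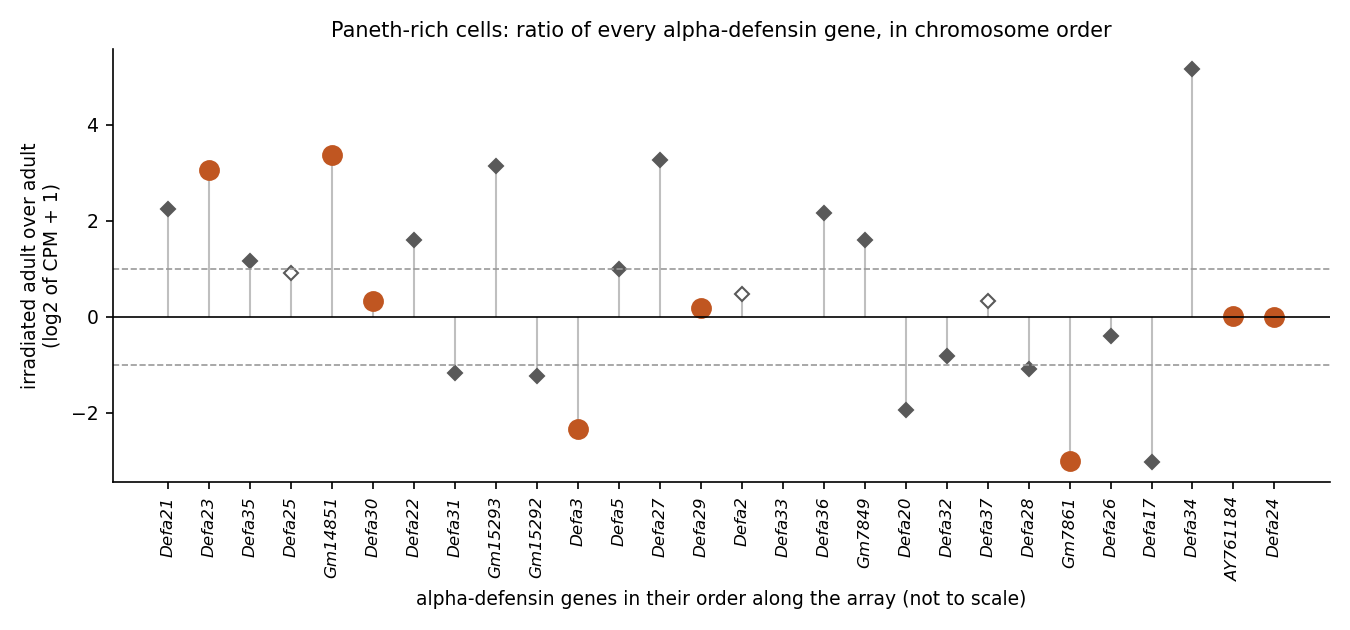
Log2 ratio of irradiated adult over adult in Paneth-rich cells for the alpha-defensin genes with a UMI, in their order along the array; circles are the 8 members, diamonds other genes, open symbols genes under 10 UMIs and dashed lines 2-fold. Gm14851 (3.37) and Gm7861 (-3.01) lie on opposite sides of 0, and AY761184 and Defa24 at the end of the array lie at 0.01 and 0.00.

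The rest of the Paneth programme was read from lists of genes, which were drawn up with earlier results known. Of 38 Paneth genes in the files, 34 passed the UMI minimum, of which 8 were at least 2-fold higher and 4 at least 2-fold lower in irradiated Paneth-rich cells (median log2 ratio 0.49, against 0.04 over all 9650 genes). Over all genes 8.04% were higher and 9.07% lower, so the lower count was near the background. Mmp7, which cuts the defensin precursors, was at 1326 CPM in adult and 3144 CPM in irradiated cells, 1.25 higher on the log2 scale. Reg3g, an antibacterial lectin, went from 151 to 2645 CPM, and Reg3b from 31.1 to 762 CPM. Ang4, an antimicrobial ribonuclease, was lower, at 8821 and 4328 CPM, as were Fzd5 (14.03 and 3.58 CPM), Ephb3 (33.0 and 10.1 CPM), both receptors linked to the position of Paneth cells in the crypt, and the potassium channel gene Kcnn4 (18.2 and 3.70 CPM). Of 22 genes of the secretory pathway and its stress response, 11 were at least 2-fold higher and 0 lower (median log2 ratio 0.98), against the same 8.04% and 9.07% of all genes. Among the 11 were the chaperone gene Hspa5 (237 and 507 CPM), the disulfide isomerase gene Pdia6 (96.9 and 217 CPM) and Agr2 (329 and 3236 CPM), a disulfide isomerase of mucus-secreting cells that is also on the goblet list.

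Over all kept cells of the adult libraries, 9389 genes with at least 200 UMIs in each were ranked by the Pearson correlation of their log2(counts per 10000 + 1) with the summed alpha-defensins. By the lower r of the 2 libraries, the most alike non-defensin genes were Lyz1 (r = 0.66 over 3788 adult and 0.79 over 3184 irradiated cells), Itln1 (0.66 and 0.75), Ang4 (0.56 and 0.59), Mptx2 (0.55 and 0.55), Mmp7 (0.53 and 0.60) and Spink4 (0.52 and 0.66), followed by Pnliprp2, Ccl6, Clps and Rnase1. These correlations are across cells of 1 library, whose depth differs. The part of depth and of any free RNA in them was not tested.

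Outside the Paneth-rich cells the adult libraries carried alpha-defensin RNA in nearly every cell. Defa24 had a UMI in 99.97% of the 3682 other adult cells (median total 3639 UMIs) and 99.9% of the 3076 other irradiated cells (median 8612), at 2483 and 2306 CPM. In tuft-marker cells, a chemosensory type that should lack alpha-defensins, the share was 100% in both libraries (1028 and 312 cells, median totals 4195 and 5144.5 UMIs) and the level 2552 and 1875 CPM. Thinned to 2000 UMIs per cell, the shares were 97.6% and 94.5%. With nearly every cell at a UMI, the share cannot separate cell classes for Defa24. Paneth-rich cells, chosen partly by Defa24, had medians of 3380.5 (adult) and 23579 (irradiated adult) Defa24 UMIs per cell. In both libraries that median was 11 in tuft-marker, 12 in enteroendocrine-marker, 13 in enterocyte-marker and 18 in goblet-marker cells. The CPM of these classes therefore also depends on their total UMIs, and the part of depth was not tested. The level over the other irradiated cells included 76 goblet-marker cells, which held 31052 of its 77382 Defa24 UMIs. By the median cell, Defa24 stood at 3019 CPM in the other adult and 1429 CPM in the other irradiated cells. The median count was 12 Defa24 UMIs per cell in both, while the median totals were 3639 and 8612 UMIs. The part of depth in this CPM difference was not tested. Enteroendocrine-marker cells had Defa24 at 2020 and 1549 CPM, and enterocyte-marker cells at 498 and 438 CPM. These marker classes were cut at 5% and 2% of UMIs, limits set after the shares were seen. Barcodes that failed the cell filter had Defa24 at 7136 CPM (adult) and 4947 CPM (irradiated adult).

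In the cells outside the Paneth-rich class Gm14851, Gm7861 and Defa3 differed in the same directions, with smaller ratios. In the other cells Gm14851 was at 32.9 CPM (adult) and 98.4 CPM (irradiated adult), 2.99-fold higher (2.78 to 3.22), Gm7861 at 219 and 47.1 CPM, 4.64-fold lower, and Defa3 at 60.7 and 12.9 CPM, 4.71-fold lower. Gm14851 had a UMI in 15.9% and 56.6% of these cells (7.42% and 20.8% when thinned) and Gm7861 in 65.3% and 34.2% (36.3% and 10.9%). In tuft-marker cells the shares were close to these, at 14.98% (exact interval 12.8% to 17.3%) and 55.4% (49.7% to 61.0%) for Gm14851 and 62.65% (59.6% to 65.6%) and 29.2% (24.2% to 34.5%) for Gm7861. The shares in other cells lay within these intervals. Tuft-marker cells are themselves 1028 of the 3682 adult and 312 of the 3076 irradiated other cells, and the classes differ in depth. The match is therefore partly built in and decides nothing about expression, which was not tested. The values are given as background. Of the 8 members 1 was at least 2-fold higher and 3 were at least 2-fold lower there, against 3.11% and 4.12% of 15150 genes. The third of the lower members was Defa30, at 1248 and 622 CPM, 2.01-fold lower, a call lost in 5 of 12 alternatives. Its median count was 6 UMIs per other adult cell and 5 per other irradiated cell. With Paneth-rich cells from 30% of UMIs the log2 ratio of Gm14851 in the remaining cells was 0.79 in place of 1.55, under 2-fold, and Defa23 was past 2-fold in 2 of 12 alternatives. Over all kept cells, which needs no rule for Paneth cells, Gm14851 stood at 597 and 9837 CPM, Defa23 at 10.6 and 142 CPM, Gm7861 at 4556 and 935 CPM and Defa3 at 941 and 301 CPM. These were the 2 higher and 2 lower of the 8 members, against 2.64% and 4.59% of 15254 genes. The 8 members summed to 68960 and 119065 CPM over all kept cells, a log2 ratio of 0.79 that was 0.21 as a mean over cells. Their sum in other cells had a ratio of -0.43. The median other cell held 22 (adult) and 21 (irradiated adult) UMIs of the 8 members, at median totals of 3639 and 8611.5 UMIs.

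Within the irradiated library the make-up of the background differed from that of the Paneth-rich cells. Gm14851 took 8.14% of the alpha-defensin UMIs of Paneth-rich cells (exact interval 8.11% to 8.16%), 3.96% of those of tuft-marker cells (3.52% to 4.44%) and 4.99% of those of failing barcodes (4.84% to 5.13%). Gm7861 took 0.748%, 1.52% and 1.28%, and Defa24 45.0%, 53.3% and 52.0%. In the adult the same classes were closer: Gm14851 took 0.766%, 0.620% and 0.636%, Gm7861 5.89%, 4.04% and 4.71%, and Defa24 43.8%, 46.3% and 45.3%. The tuft-marker class was cut at 0.5% of UMIs from tuft markers, and 24 adult and 106 irradiated cells lay within 20% of that limit.

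**Figure D5:**
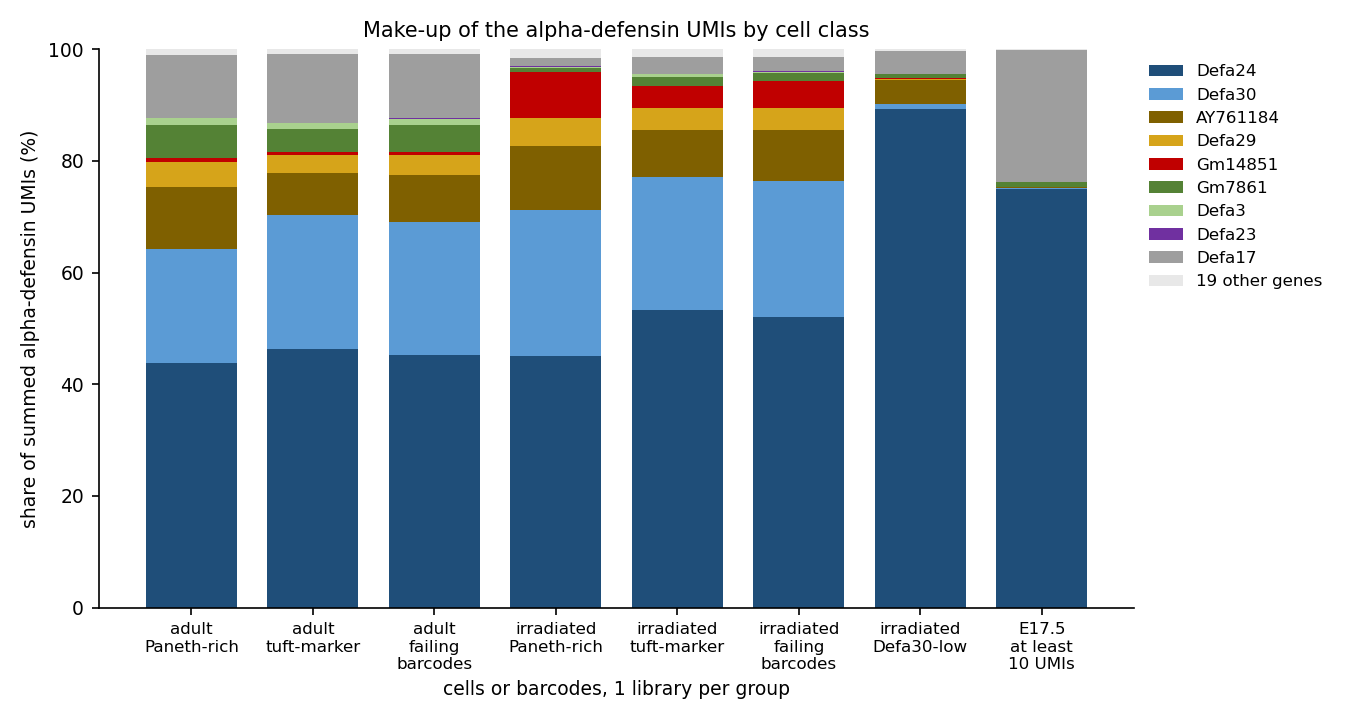
Make-up of the summed alpha-defensin UMIs in Paneth-rich cells, tuft-marker cells and barcodes that failed the cell filter of the adult and irradiated adult, in the 25 irradiated cells with little Defa30, and in 127 E17.5 cells with at least 10 alpha-defensin UMIs. The Gm14851 segment is visible in the irradiated bars and Gm7861 and Defa17 in the adult bars, while the last 2 bars consist mainly of Defa24.

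The embryonic libraries held few members. In the E12.5 library the 8 members had 2 UMIs in 4226 cells, both of AY761184, and the other 7 had 0, with an exact Poisson upper limit of 0.04142 CPM each. At E17.5 Defa24 stood at 155 CPM (153 to 158), with a UMI in 392 cells, and at most 792 UMIs in 1 cell. Gm7861 had 137 UMIs (1.78 CPM), AY761184 43 (0.56 CPM), Defa30 25 (0.33 CPM) and Defa3 2, while Defa23, Defa29 and Gm14851 had none, with an exact upper limit of 0.04795 CPM.

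The E17.5 signal sat in few cells. At least 10 alpha-defensin UMIs were found in 127 of 4602 cells (2.76%), and in these Defa24 took 74.99% of the alpha-defensin UMIs, Defa17 23.5%, Gm7861 0.889%, AY761184 0.257% and Defa30 0.132%. The cells were chosen by these UMIs, and their other genes give a description with no test. Spink4, a secreted protein of goblet and Paneth cells, was at 4130 CPM in them against 80.8 CPM in the 4166 cells without an alpha-defensin UMI, Clca1, a goblet cell secretory protein, at 330 against 5.78 CPM, Ccl9 at 251 against 2.37 CPM, and Atoh1, the transcription factor of the secretory lineage, at 57.9 against 2.42 CPM. Lyz1 was at 48.9 against 5.88 CPM, Mmp7 at 16.2 against 0.985 CPM, Mptx1 at 107.5 against 1.49 CPM and Ang4 at 24.96 against 3.98 CPM. The Paneth list as a whole took 0.0842% against 0.410% of UMIs, most of it from Clps, a colipase gene, at 592 against 3879 CPM; Nupr1 stood at 39.9 against 196 CPM. The median totals of these cells were 31989 and 11118.5 UMIs, a difference whose part in these levels was not tested.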

How the data were processed

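Droplet 3′ single-cell RNA sequencing was run on 4 libraries of FACS-isolated epithelial cells, per the labels' protocols. The authors deposited whole UMI counts per gene and barcode for each library, without normalization; the submitters' processing notes name Cell Ranger 3.1.0 and the build mm10. How reads matching several alpha-defensin copies were treated is not given in the sources used here. The 8 members and all lists were chosen with earlier results of these data known. Named are all members, other alpha-defensins with at least 1% of the family's UMIs in an adult library, genes of 2 fixed lists, and the 10 genes most correlated with the family. Also named are genes of the cell type marker lists and, below the 1% limit, Defa31, Gm7849 and Defa34. Ccl9 is named at E17.5 although it is on none of these lists.

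UMIs were summed over cells and given per 1000000 UMIs (CPM), with exact Poisson intervals; ratios are of CPM plus 1 on the log2 scale, with exact conditional binomial intervals of the fold at 95% confidence. A gene counted as higher or lower past 2-fold with at least 10 UMIs in the higher library. No test was run. A floor is 3 counts. Cells were thinned to 2000 UMIs for shares of cells with a UMI. The labels put 1 library in each group, and no other column was used. Alternatives covered the cell filter, Scrublet scores (scanpy 1.11.5), the Paneth-rich rule, the scaling (edgeR 4.0.16) and the pseudocount. Sequences came from GENCODE M21 (GRCm38) and RefSeq, and identities from global alignments in Biopython 1.88. The ratio and its interval were tested on simulated data.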

Additional observations from a re-analysis of the deposited data

Results flagged for a closer look

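The barcodes that failed the cell filter, which enter no comparison, carried alpha-defensin RNA: the 8 members summed to 13795.5 CPM over 2499 adult barcodes and 9139.3 CPM over 2812 irradiated adult barcodes, where a count of 3 would be 0.445 and 0.320 CPM. Of these barcodes, 28 adult and 26 irradiated ones met the 15% limit for Paneth-rich cells. In them Gm14851 stood at 3998 CPM in the adult and 31539 CPM in the irradiated adult, and Gm7861 at 27752 and 5767 CPM.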

How the results depend on the processing

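The 2 members higher (Defa23, Gm14851) and the 2 lower (Defa3, Gm7861) in irradiated Paneth-rich cells were the same genes under every one of the 17 alternatives, 2 of them (without cells low in Defa30, and cells of at least 10000 UMIs) chosen after seeing the data, and none of these 4 changed direction. Of the members near a ratio of 0, Defa24 changed sign in 6 and AY761184 in 3 of 14 alternatives. The summed log2 ratios, none past 2-fold, moved by more than counting error. With every deposited barcode the ratio of the 8 members was 0.73 over all cells, -0.45 in other cells and 0.11 in Paneth-rich cells, and the Paneth-rich shares were 2.13% (adult) and 2.24% (irradiated). With at least 1000 genes and at most 10% mitochondrial UMIs these were 0.46, -0.0931 and 0.0847, the 6 members outside the cell rule were at 0.0728, and the shares 4.28% and 4.53%. Without the highest Scrublet scores the 8 members were at 0.78, -0.53 and 0.11; the caller's own threshold marked 25 adult cells and 1 irradiated cell and was not used. With Paneth-rich cells from 5% of UMIs the shares were 3.64% and 4.68%, the 6 members at 0.0970 and the other cells at -0.70. From 30% the adult share was 1.87%, the 6 members were at 0.13, the 8 at 0.11 and the other cells at -0.39. With cells chosen without alpha-defensins these values were 2.06%, 0.0839, 0.0890 and -0.53. Leaving alpha-defensins, Lyz1, Itln1 and mitochondrial genes out of the denominator gave 0.84 over all cells, -0.47 in other cells and 0.10 for the 8 in Paneth-rich cells. As a mean over cells the values were 0.21, -0.54 and 0.28, with 0.30 for the 6 members; thinned to 2000 UMIs, 0.27, -0.81, 0.24 and 0.25; with edgeR's TMM factors, 0.86, -0.46, 0.19 and 0.18. Without cells low in Defa30 the 6 members were at 0.20 and the 8 at 0.18, and in cells of at least 10000 UMIs they were at 0.0836 and 0.0920. The cause of these shifts was not tested. Pseudocounts of 0.1 and 10 CPM changed none of these summed ratios. For Defa23 in other cells, a member near 1 CPM there, they gave log2 ratios of 1.385 and 0.14 in place of 0.75.

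No paired analysis was possible because each group has 1 library. Depth limits Defa23 most, with 321 adult UMIs in Paneth-rich cells and 16 in other cells, and levels of Defa3, Defa23 and Gm7861 depend on how reads of identical coding sequences were assigned.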
